A study of Mus musculus with 26 samples.

Results

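The 10 genes described here are genes of growth hormone signalling in the liver and its product IGF1, together with the prolactin receptor gene. They are the receptor genes Ghr and Prlr, the signal transducer genes Stat5a and Stat5b, the feedback genes Socs2 and Cish, the repressor genes Bcl6 and Cux2, and the IGF1 genes Igf1 and Igfals. They were chosen by name from the 36883 gene names of the deposited count table. All 10 passed the filter on low counts.

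RNA was measured in livers of Eu-MYC mice, a strain in which an enhancer of the immunoglobulin heavy chain locus drives a MYC transgene in B-lineage cells. Every animal of every group carried the transgene, so no comparison was made with mice that lack it. The groups were 8 females and 4 males under chronic jet lag lighting (CJL) for 8 weeks, and 8 females and 6 males under 12:12 lighting, 12 hours of light and 12 hours of dark. The jet lag males carry the numbers 5 to 8, and the males under 12:12 lighting the numbers 1 to 6. The labels number the mice within each sex and lighting. The sources used here give neither the age of the mice nor the hour of sampling.

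Growth hormone binds its receptor GHR on hepatocytes, and the kinase JAK2 on that receptor then phosphorylates STAT5B and STAT5A. Phosphorylated STAT5 enters the nucleus and turns on targets that include Igf1, Igfals, Socs2 and Cish, and the proteins made from Socs2 and Cish damp the signal. Male mice release growth hormone in pulses and females more evenly, which gives the liver a male or a female set of genes. In mouse liver Cux2 is known as a female-biased gene, Bcl6 as a male-biased one, and both encode transcription factors that act with STAT5 on sex-biased genes.

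The libraries held 45364557 to 50242019 counts. Summed hepatocyte markers were at 173000 to 285000 CPM, the count scaled to a common library total. The sex labels held in every library, since the Y-linked gene Ddx3y was at 14.5 to 61.8 CPM in the males and at no more than 0.0627 CPM in the females. Cd79a, which encodes a part of the B-cell receptor, split the libraries into 8 at 14.5 to 144 CPM and 18 at 1.28 to 2.95 CPM. The 8 were 3 of 8 jet lag females, 2 of 8 females under 12:12 lighting, 1 of 4 jet lag males and 2 of 6 males under 12:12 lighting. They are libraries set apart by a measured level and no group of the study.

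Among these 8, jet lag male 8 (Cd79a 144 CPM) and 12:12 male 3 (Cd79a 45.6 CPM) stood apart from all other males. Cux2 was at 60.4 CPM in jet lag male 8 and at 33.0 CPM in 12:12 male 3, against 0.205 to 1.83 CPM in the other 8 males. Both carried a male level of Ddx3y, since the 3 males with high Cd79a had 48.1 to 61.3 CPM.

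The promoter sequences bear on the STAT5 targets, since STAT5 dimers bind palindromes of the form TTCNNNGAA. This motif is its own reverse complement, so a search of one strand covers both. RefSeq windows on GRCm38.p6, 250 bases before to 50 bases after a start, were at hand for 9 of the 10 genes, with 18 windows, and none was at hand for Socs2. The motif stood in 6 of the 18 windows, from Cish, Bcl6, Igfals and Prlr, against 2726 of all 32851 windows of 300 bases (8.3%). The windows with 2 or more matches numbered 150 (0.457%) and included those of Cish and Bcl6 printed here, with the matches in capitals and the neighbouring bases for context.
Cish, chr9:107296409-107296708, plus strand: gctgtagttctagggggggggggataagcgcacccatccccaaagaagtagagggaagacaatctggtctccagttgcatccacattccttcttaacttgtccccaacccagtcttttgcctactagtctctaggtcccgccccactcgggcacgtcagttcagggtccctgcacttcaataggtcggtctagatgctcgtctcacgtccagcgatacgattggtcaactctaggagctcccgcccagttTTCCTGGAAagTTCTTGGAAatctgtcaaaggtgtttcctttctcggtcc
Bcl6, chr16:23981234-23981533, minus strand: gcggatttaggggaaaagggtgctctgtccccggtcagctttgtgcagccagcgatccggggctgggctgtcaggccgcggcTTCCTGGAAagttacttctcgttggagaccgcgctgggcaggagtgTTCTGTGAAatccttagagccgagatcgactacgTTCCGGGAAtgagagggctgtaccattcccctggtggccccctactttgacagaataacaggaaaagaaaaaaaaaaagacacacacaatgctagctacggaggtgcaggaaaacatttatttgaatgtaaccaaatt
The first Cish match began at the annotated start and the second 11 bases after it. The Bcl6 matches began 168, 122 and 88 bases before the start. A window at the other annotated Bcl6 start held 1 match, TTCTCAGAA, 118 bases before it. Igfals had TTCTCAGAA 236 bases before one start and TTCCTAGAA 58 bases before another, and Prlr had TTCTAGGAA 110 bases before one of its starts. A match is a description of letters and no evidence of binding.

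Levels between genes were compared as CPM per kb of exon, from the GENCODE vM21 gene models. The median over the 26 libraries was highest for Igfals with 40.8 CPM per kb, then for Ghr with 35.5, Igf1 with 30.5 and Prlr with 23.2 CPM per kb. Igfals encodes the acid labile subunit, which keeps IGF1 in the circulation in a complex with a binding protein. Stat5b was at 7.27 CPM per kb, Cux2 at 5.18, Cish at 2.11, Stat5a at 2.06, Bcl6 at 1.8 and Socs2 at 0.794 CPM per kb. The ranges over libraries of neighbours in this order overlapped in every case, for example 14.8 to 64.5 CPM per kb for Igfals and 18.8 to 51.2 CPM per kb for Ghr. Stat5a and Stat5b lie beside each other on chromosome 11 (Stat5b at 100780731 to 100859004 and Stat5a at 100859351 to 100885169) and encode near-identical proteins, so their split of shared reads is uncertain. Noncoding RNA genes overlap 7 of the 10 genes in RefSeq, and the sources used here do not say whether counting used the strand.

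The spread among mice differed widely between the genes. Igf1 ran from 188 to 354 CPM over all 26 libraries, and Ghr from 170 to 464 CPM. The feedback and repressor genes were far more variable, with Socs2 at 1.64 to 33.8 CPM, Cish at 1.57 to 62.9 CPM and Bcl6 at 3.89 to 61.5 CPM. Within the 12:12 males alone, Cish was at 62.9 CPM in male 2 and at 6.94 CPM in male 4.

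**Figure D1:**
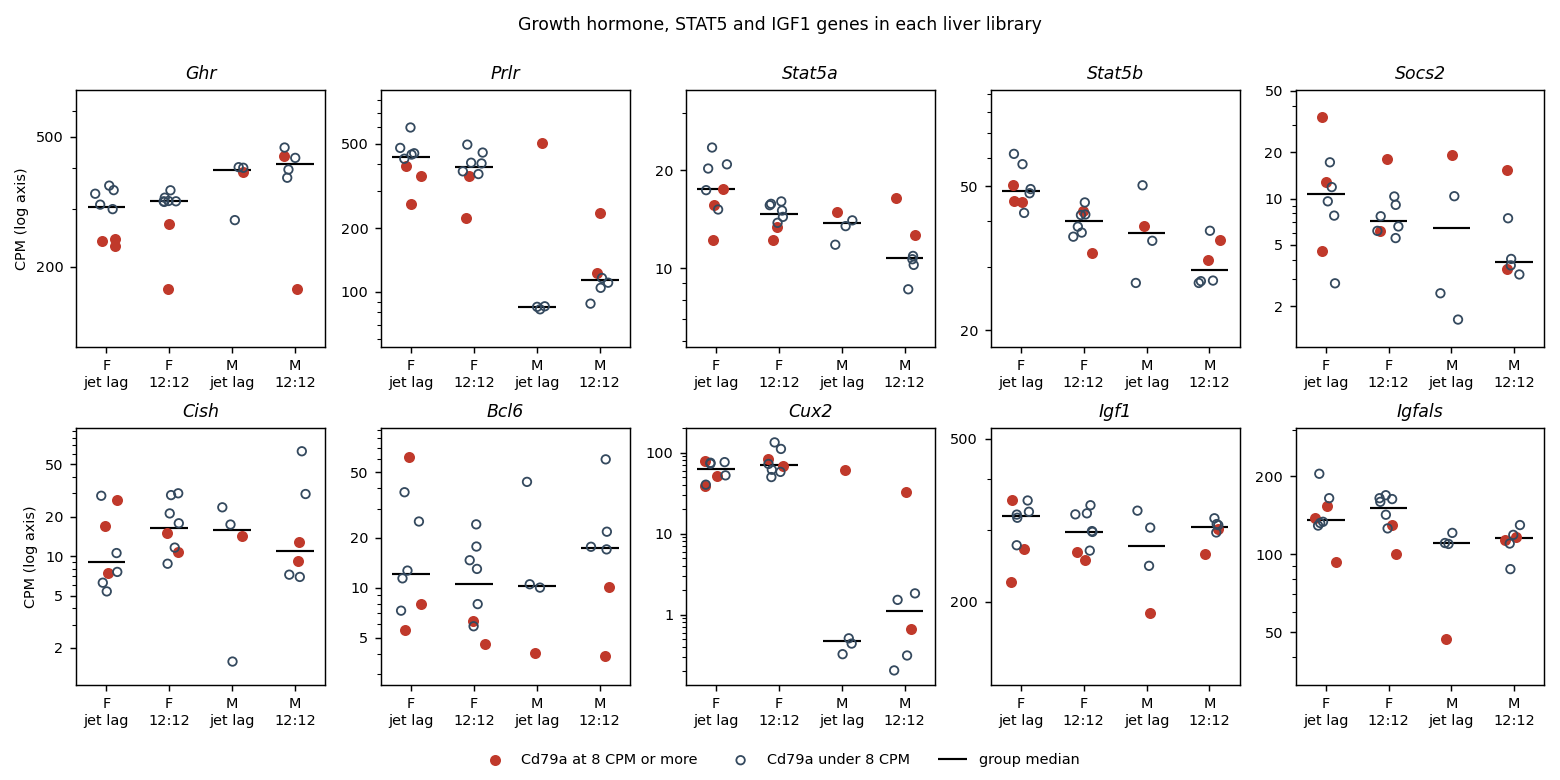
Level of each of the 10 genes in every library, in CPM on a log axis, with jet lag left of 12:12 lighting in females (F) and males (M). Filled points are libraries at 8 CPM of Cd79a or more, open points the others, and bars the group medians; 2 filled male points reach 60.4 and 33.0 CPM of Cux2, beside 39.0 to 134 CPM in females.

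The title of the series asks what 8 weeks of jet lag lighting do to gene expression in the liver. None of the 10 genes passed the threshold, an adjusted p under 0.05, over both sexes, where 132 of 16892 genes (0.781%) did, with 0.444% of all genes higher and 0.337% lower. At an unadjusted p under 0.05 there were 1353 of the 16892 genes and 2 of the 10, Stat5b and Stat5a, both higher under jet lag. The median log2 fold change of the 10 was 0.22, against 0.02 for all genes tested.

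Stat5b, the main STAT5 gene of the liver, had the smallest p. In females it was at a lowest of 42.2, a median of 48.5 and a highest of 61.4 CPM under jet lag, against 32.7, 40.2 and 45.1 CPM under 12:12 lighting. In males it was at 50.3, 35.3, 27.03 and 38.9 CPM under jet lag, against a lowest of 27.03, a median of 29.3 and a highest of 37.7 CPM under 12:12 lighting. All 8 jet lag females lay above the median of the 12:12 females, but the ranges overlapped in both sexes. The log2 fold change was 0.29 (SE 0.08, adjusted p = 0.0959 by edgeR's quasi-likelihood test). By sex it was 0.30 (SE 0.10, adjusted p = 0.636) in females and 0.28 (SE 0.13, adjusted p = 0.51) in males. Stat5b passed with DESeq2 (adjusted p = 0.0323) and with the Cd79a class as a covariate (adjusted p = 0.0354), and over all settings its adjusted p ran from 0.0323 to 0.214.

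Stat5a, the lesser STAT5 gene in liver, had a log2 fold change of 0.25 (SE 0.10, adjusted p = 0.403). It averaged 16.4 ± 3.62 CPM under jet lag and 13.3 ± 2.46 CPM under 12:12 lighting (SD, n = 12 and 14). Without the 8 libraries of high Cd79a, Stat5a passed with a log2 fold change of 0.32 (adjusted p = 0.0474) and Stat5b did not (adjusted p = 0.103). The authors' deposited table, whose fold is 12:12 over jet lag, gives Stat5b a log2 fold change of -0.321 with an adjusted p of 0.065. For Stat5a the authors' deposited table gives -0.278 with an adjusted p of 0.338.

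The receptors did not pass. Ghr averaged 319 ± 62.7 CPM under jet lag and 332 ± 88.3 CPM under 12:12 lighting (SD), a fold of 0.963 with a 95% interval of 0.793 to 1.17. Prlr, the prolactin receptor gene, had a fold of 1.18 with an interval of 0.877 to 1.6. The intervals leave room for a modest difference in either direction.

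Among the STAT5 targets, Igf1 had the narrowest interval. It averaged 294 ± 53.7 CPM under jet lag and 298 ± 27.8 CPM under 12:12 lighting, a fold of 0.971 with a 95% interval of 0.83 to 1.14. Igfals had a fold of 0.94 with an interval of 0.77 to 1.15. The feedback genes were less well bounded, with a fold of 1.39 for Socs2 (0.857 to 2.26) and of 0.697 for Cish (0.406 to 1.2). Bcl6 had a fold of 1.31 (0.678 to 2.54) and Cux2 of 1.15 (0.449 to 2.94). For these 4 genes, and for Ghr and Igf1 as well, the spread among mice exceeded the difference between the lightings.

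Within females 0 of the 10 genes and 0 of all 16892 genes passed (0%), with 772 genes at an unadjusted p under 0.05, 55 called by DESeq2 and 0 by limma-voom. Within males 0 of the 10 passed, against 2 of all genes (0.0118%). The test of the difference between the sexes' responses called 0 genes (0%), with 902 at an unadjusted p under 0.05 and 0 called by DESeq2 or limma-voom. Of 34 other tested genes of the growth hormone and IGF pathway (among them JAK kinases, SOCS genes, phosphatases and IGF binding proteins) 0 passed over both sexes with edgeR. Their median log2 fold change was -0.02, from -0.53 to 1.57.

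**Figure D2:**
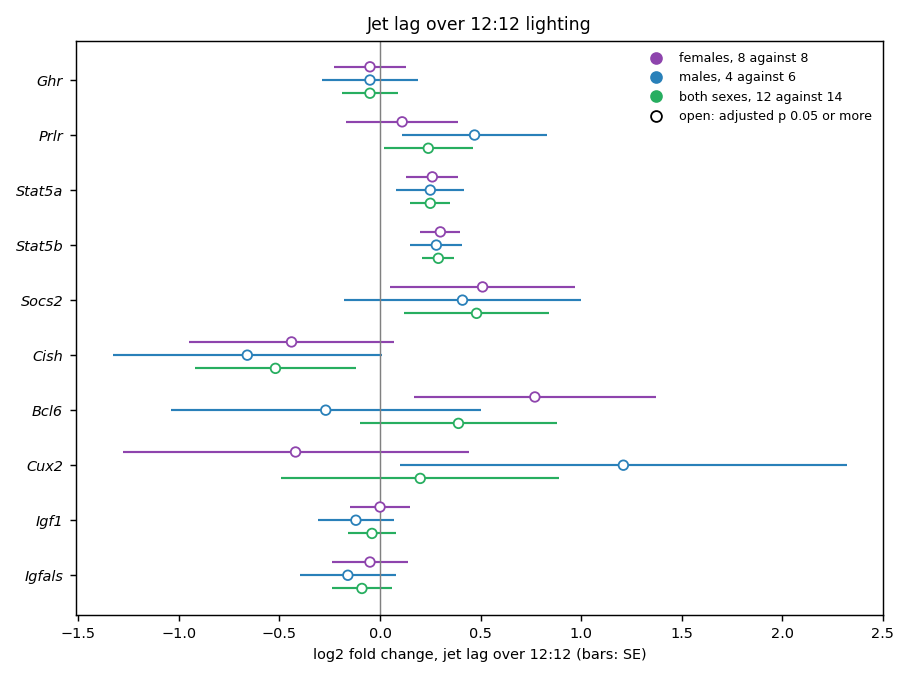
Log2 fold change of jet lag over 12:12 lighting for each gene, with its SE, in females (8 against 8), males (4 against 6) and both sexes (12 against 14). Every point is open, since no adjusted p was under 0.05; Stat5b lies at 0.30, 0.28 and 0.29.

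Growth hormone release differs between the sexes, so the same genes were compared between females and males. Under 12:12 lighting 1 of the 10 genes passed, against 622 of 16892 (3.68%), or 2.01% higher and 1.67% lower in females. That gene was Prlr, which averaged 383 ± 81 CPM in females and 130 ± 53.3 CPM in males (SD, n = 8 and 6). Its log2 fold change of females over males was 1.48 (SE 0.32, adjusted p = 0.00738), and all 8 females lay above the male median. Prlr kept its call in all 8 other settings and whichever of the 26 libraries was left out.

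Under jet lag 0 of the 10 genes passed, against 324 of 16892 (1.92%), or 0.87% higher and 1.05% lower in females. At an unadjusted p under 0.05 there were 2 of the 10 and 2600 of all genes. DESeq2 called 1 of the 10 and 650 of all genes, and limma-voom 2 and 225. Prlr was at a lowest of 258, a median of 434 and a highest of 596 CPM in jet lag females, against 85.0, 85.5, 82.8 and 502 CPM in jet lag males. The single male at 502 CPM was male 8, within the female range. The log2 fold change was 1.12 (SE 0.36, adjusted p = 0.117), and without male 8 it was 2.11 (adjusted p = 3.01e-05).

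Of the 10 genes Cux2 showed the widest gap between the sexes, with the same dependence on single males. Jet lag females had a lowest of 39.0, a median of 62.7 and a highest of 79.9 CPM, against 0.439, 0.325, 0.51 and 60.4 CPM in jet lag males. Females under 12:12 lighting had 49.9, 70.9 and 134 CPM, against a lowest of 0.205, a median of 1.10 and a highest of 33.0 CPM in 12:12 males. The female and male ranges did not overlap under 12:12 lighting, and under jet lag 1 male lay among the females. The log2 fold change was 2.02 (SE 1.17, adjusted p = 0.419) under jet lag and 3.65 (SE 1.08, adjusted p = 0.0601) under 12:12 lighting. Without jet lag male 8 the first was 6.94 (adjusted p = 0.00314), and without 12:12 male 3 the second was 6.31 (adjusted p = 0.000605). The 12:12 value passed in 5 of 26 fits that left out 1 library, which were those without 12:12 male 3 or any of the jet lag males.

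Ghr was lower in females in both lightings without passing. It averaged 294 ± 50.1 CPM in jet lag females and 368 ± 60.8 CPM in jet lag males, a log2 fold change of -0.47 (SE 0.22, adjusted p = 0.305). Under 12:12 lighting the averages were 297 ± 55 CPM in females and 379 ± 107 CPM in males, a log2 fold change of -0.47 (SE 0.20, adjusted p = 0.212). Without 12:12 male 3, at 170 CPM of Ghr, the second was -0.63 (adjusted p = 0.0235). Without all 8 libraries of high Cd79a, 4 of the 10 genes passed under 12:12 lighting, against 1357 of the 16431 genes tested. Prlr, Cux2 and Stat5a were higher in females and Ghr lower, and of all genes 756 passed as higher and 601 as lower.

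Igf1 did not differ detectably between the sexes, with a fold of females over males of 0.998 (95% interval 0.78 to 1.28) under jet lag and 0.917 (0.738 to 1.14) under 12:12 lighting. Stat5b had log2 fold changes of 0.26 (SE 0.13, adjusted p = 0.343) under jet lag and 0.23 (SE 0.11, adjusted p = 0.285) under 12:12 lighting. Bcl6 averaged 11.8 ± 6.87 CPM in 12:12 females and 21.7 ± 19.7 CPM in 12:12 males (adjusted p = 0.435), and under jet lag its log2 fold change was 0.00 (SE 0.73, adjusted p = 0.999). Under jet lag Socs2 was at 0.48 (SE 0.57), Cish at -0.15 (SE 0.62), Igfals at 0.36 (SE 0.23) and Stat5a at 0.23 (SE 0.16), and under 12:12 lighting they were at 0.38 (SE 0.50), -0.37 (SE 0.54), 0.25 (SE 0.20) and 0.23 (SE 0.14), none past the threshold. Of the other pathway genes, 2 of 34 rose under 12:12 lighting in females over males, both IGF binding proteins, Igfbp7 with a log2 fold change of 0.52 (adjusted p = 0.0442) and Igfbp3 with 0.80 (adjusted p = 0.0452). Under jet lag 0 of the 34 passed with edgeR.

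A list of 14 genes that are known as male-biased in mouse liver and a list of 15 known as female-biased were compared as well. Only RNA was measured, and the part of growth hormone in the levels of these genes was not tested. In females over males, 10 of the 14 male-biased genes fell under jet lag and 11 under 12:12 lighting, with a median log2 fold change of -3.36 in both. Over all genes 1.05% fell under jet lag and 1.67% under 12:12 lighting. Cyp2d9, a male-biased cytochrome P450 gene, averaged 70.4 ± 29 CPM in jet lag females and 1580 ± 957 CPM in jet lag males. Of the 15 female-biased genes, 9 rose under jet lag and 12 under 12:12 lighting, against 0.87% and 2.01% of all genes. Hao2, a hydroxyacid oxidase gene, averaged 37.9 ± 12.4 CPM in 12:12 females and 0.0215 ± 0.0342 CPM in 12:12 males. Scaling by column totals in place of TMM moved the share of higher calls in females over males, to 297 higher and 95 lower under jet lag (147 and 177 with TMM) and to 695 and 178 under 12:12 lighting (340 and 282 with TMM). The median log2 fold change of all genes was 0.183 under 12:12 lighting with column totals and 0.06 with TMM.

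The 8 libraries with Cd79a at 8 CPM or more were compared with the other 18, with sex and lighting in the model. Here 7205 of 16892 genes (42.7%) passed, and 5 of the 10 genes did, a share near that of all genes. Ghr, Igf1 and Igfals were lower in the 8 libraries, as were 19.6% of all genes, and Socs2 and Cux2 higher, as were 23.1%. The median log2 fold change was -0.28 for the 10 and -0.02 for all genes. With column totals the median over all genes was 0.142, and the calls split into 5423 higher and 1510 lower, against 3894 and 3311 with TMM.

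These libraries also differed in markers of other cells. Summed B-lineage markers were at 69.3 to 643 CPM in the 8 and at 14.7 to 30.2 CPM in the 18, with 13 of 15 tested markers higher. Cd79a is one of these markers and made the classes, and without it the sums were 54.8 to 498 CPM in the 8 and 13.0 to 27.3 CPM in the 18. Macrophage and Kupffer cell markers summed to 511 to 2290 CPM in the 8, against 271 to 592 CPM in the 18, and 10 of 10 rose. Of the B-lineage markers, Igll1 was at 0 in 18 libraries and Rag2 in 23. Proliferation genes summed to 70 to 954 CPM in the 8 and 15.9 to 32.9 CPM in the 18, with 12 of 12 higher. Neutrophil genes summed to 7.16 to 453 CPM in the 8 and 1.21 to 7.4 CPM in the 18, with 9 of 9 tested higher. Hepatocyte markers summed to 201000 to 285000 CPM in the 8 and 173000 to 220000 CPM in the 18, with 1 of 12 higher and 3 lower. In whole liver, fewer cells of a type and less RNA per cell cannot be told apart, and the part of these other cells in the results was not tested.

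Ghr fell in the 8 libraries. It was at a lowest of 170, a median of 241 and a highest of 437 CPM in the 8, against 278, 339 and 464 CPM in the 18. The log2 fold change was -0.56 (SE 0.11, adjusted p = 0.000234), and it was -0.40 with column totals (adjusted p = 0.00784). In females the 5 libraries were at 171 to 270 CPM and the 11 others at 300 to 354 CPM, with no overlap. In males 12:12 male 3 was at 170 CPM, but jet lag male 8 at 391 and 12:12 male 5 at 437 CPM lay within the 278 to 464 CPM of the 7 others, and the male comparison missed the threshold (adjusted p = 0.0663). Without 12:12 male 3 the adjusted p in males was 0.531.

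Igf1 and Igfals, both STAT5 targets, were lower together. Igf1 was at 188 to 354 CPM in the 8 libraries, median 263, against 245 to 353 CPM in the 18, median 315. Its log2 fold change was -0.40 (SE 0.10, adjusted p = 0.0019), and 7 of the 8 lay below the median of the 18. The log2 fold change of Igfals was -0.46 (SE 0.13, adjusted p = 0.00554), with the lowest value, 47.0 CPM, in jet lag male 8. With any 1 of the 26 libraries left out both passed, and with column totals Igf1 was at -0.23 (adjusted p = 0.0322) and Igfals at -0.30 (adjusted p = 0.0506). Within each sex, in the model of all 26 libraries, Igfals did not pass, with -0.44 (adjusted p = 0.0564) in females and -0.51 (adjusted p = 0.0844) in males. Fitted on female libraries alone Igfals passed at -0.44 (adjusted p = 0.0199), and on male libraries alone it did not, at -0.52 (adjusted p = 0.182). Without jet lag male 8 its log2 fold change in males was -0.13 (adjusted p = 0.783).

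Socs2, whose protein is a brake on growth hormone signalling, went the other way. It averaged 14.2 ± 9.98 CPM in the 8 libraries and 7.08 ± 3.96 CPM in the 18 (SD), a log2 fold change of 0.83 (SE 0.34, adjusted p = 0.0466). It was 0.66 with limma-voom (adjusted p = 0.127), and the adjusted p was 0.0804 with no filter and 0.0532 with the 4 groups in the model. The 8 libraries ran from 3.47 to 33.8 CPM and overlapped the 18, which ran from 1.64 to 17.2 CPM. The call held in 10 of 26 fits that left out 1 library, and without jet lag female 5, at 33.8 CPM, the log2 fold change was 0.62 (adjusted p = 0.151). Cish, the other feedback gene, was at -0.37 (SE 0.45, adjusted p = 0.536). Cux2 had a log2 fold change of 2.36 (SE 0.88, adjusted p = 0.0336) over both sexes and of -0.23 in female libraries alone. With limma-voom it was 0.44 (adjusted p = 0.482), and with no filter the adjusted p was 0.0527. Its call held in 17 of 26 fits that left out 1 library. Without jet lag male 8 the value was 1.48 (adjusted p = 0.0774), and without 12:12 male 3 it was 1.91 (adjusted p = 0.0833). Stat5b was at -0.18 (SE 0.08, adjusted p = 0.0703), and at -0.22 (adjusted p = 0.0402) without 12:12 male 3. Prlr was at 0.20 (SE 0.25, adjusted p = 0.546) and Stat5a at -0.19 (SE 0.10, adjusted p = 0.144). With column totals Stat5b was at -0.02 (adjusted p = 0.894) and Stat5a at -0.02 (adjusted p = 0.911).

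Of the 34 other pathway genes, 7 rose and 6 fell in the 8 libraries, shares near the 23.1% higher and 19.6% lower of all genes. The risers include Ptpn6 and Ptpn1, genes of phosphatases that act on JAK kinases, with log2 fold changes of 0.92 (SE 0.11, adjusted p = 1.34e-07) and 0.64 (SE 0.11, adjusted p = 3.49e-05). Igf1r, the receptor gene for IGF1, was at 1.07 (SE 0.23) and Igfbp3 at 0.47 (SE 0.14). Among those that fell were Igfbp4 at -0.38 (SE 0.10), Tyk2 at -0.29 (SE 0.08) and Sh2b1, whose protein binds JAK2, at -0.19 (SE 0.07). The CPM ranges of the 8 and the 18 overlapped for Igf1r, Igfbp3, Igfbp4, Tyk2 and Sh2b1, but not for Ptpn6 and Ptpn1. In CPM, which takes no TMM scaling, Sh2b1 averaged 48.6 in the 8 and 49.4 in the 18. For Sh2b1 and for Igfbp3, 4 of the 8 lay above the median of the 18 and 4 below. Ptpn6 is also a gene of blood cells, and the part of the blood cell markers in its level was not tested.

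The classes were then compared within each sex and the difference itself was tested, which was chosen after seeing the data. In females 4730 genes (28%, with 17.6% higher and 10.4% lower) passed and 4 of the 10, each lower in the 5 libraries of high Cd79a. They were Ghr with a log2 fold change of -0.64 (SE 0.15, adjusted p = 0.00176), Prlr with -0.66 (SE 0.19, adjusted p = 0.00972), Stat5a with -0.44 (SE 0.11, adjusted p = 0.00364) and Igf1 with -0.34 (SE 0.13, adjusted p = 0.0466). Without 12:12 female 6 the count over all genes was 2935 and the adjusted p of Prlr was 0.0627. Igf1 held its call in 7 of the 26 fits that left out 1 library. With column totals the female calls split into 3897 higher and 787 lower, against 2979 and 1751 with TMM.

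In males 4744 genes (28.1%, with 16.6% higher and 11.5% lower) passed, and 4 of the 10, with Prlr and Cux2 higher and Igf1 and Bcl6 lower in the 3 libraries of high Cd79a. Without jet lag male 8 the count over all genes was 958. Prlr was at 502, 236 and 123 CPM in the 3, against 82.8 to 116 CPM in the 7 others, a log2 fold change of 1.31 (SE 0.22, adjusted p = 9.29e-05). Cux2 was at 60.4, 33.0 and 0.67 CPM in the 3, against 0.205 to 1.83 CPM, a log2 fold change of 5.26 (SE 0.69, adjusted p = 4.7e-06). Without jet lag male 8 the log2 fold change was 0.74 for Prlr (adjusted p = 0.0307) and 4.18 for Cux2 (adjusted p = 0.000355). Without 12:12 male 3 it was 1.37 for Prlr (adjusted p = 0.000402) and 5.28 for Cux2 (adjusted p = 3.6e-05). The third male, 12:12 male 5 with 26.2 CPM of Cd79a, had Cux2 within the range of the 7. With column totals the male calls split into 4002 higher and 644 lower, against 2798 and 1946 with TMM, and of the 10 genes Prlr, Cux2 and Stat5a passed, each higher.

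Bcl6 was at 4.04, 3.89 and 10.05 CPM in jet lag male 8, 12:12 male 3 and 12:12 male 5, against 10.02 to 59.7 CPM in the 7 others. Its log2 fold change in males was -2.31 (SE 0.86, adjusted p = 0.0474), a call that held in 11 of 26 fits that left out 1 library, and its adjusted p was 0.317 without jet lag male 8 and 0.145 without 12:12 male 3. Igf1 in males was at -0.49 (SE 0.16, adjusted p = 0.0254) and held in 23 of 26, with an adjusted p of 0.413 without jet lag male 8 and 0.0503 without 12:12 male 3. In females Bcl6 was at -0.16 (SE 0.62, adjusted p = 0.881), and 61.5 CPM, its highest level of all libraries, was in jet lag female 2, a library of high Cd79a. Without that library the adjusted p of Bcl6 was 0.0299 in females, and over both sexes its log2 fold change was -1.86 (adjusted p = 0.000775), against -0.88 (adjusted p = 0.21) with all libraries.

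The effects of the class differed between the sexes for 38 genes (0.225%, with 0.201% positive and 0.0237% negative), 2 of them among the 10. The difference, males minus females, was 1.97 for Prlr (SE 0.29, adjusted p = 0.00076) and 5.54 for Cux2 (SE 0.88, adjusted p = 0.00311) on the log2 scale. With limma-voom the Cux2 difference was 4.41 (adjusted p = 0.31). Prlr was higher with high Cd79a in males and lower in females. Without jet lag male 8 the adjusted p was 0.0322 for Prlr and 0.0584 for Cux2, and 10 genes differed in all. The count was 24 without 12:12 male 3 and 242 without 12:12 male 5.

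**Figure D3:**
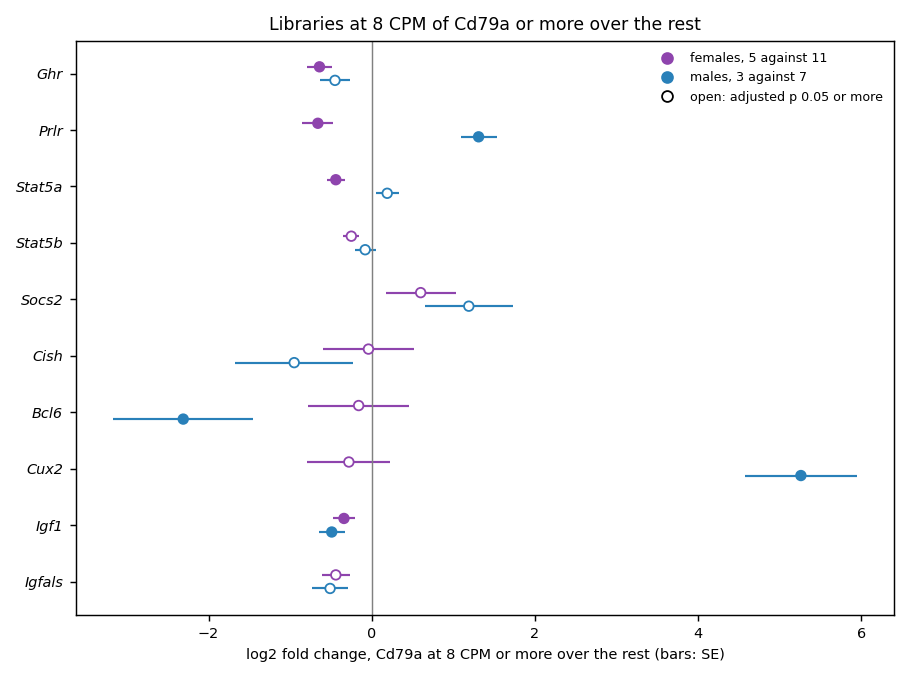
Log2 fold change of libraries at 8 CPM of Cd79a or more over the rest, with its SE, in females (5 against 11) and males (3 against 7). Filled points had an adjusted p under 0.05; Prlr lies at -0.66 in females and 1.31 in males, and Cux2 at -0.28 and 5.26.

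The sex-biased lists moved in the same libraries. Of the 14 male-biased genes 7 fell in the males of high Cd79a and 0 rose, and of the 15 female-biased genes 9 rose and 0 fell. Over all genes 11.5% fell and 16.6% rose in these males. Without jet lag male 8 the list counts were 0 male-biased genes lower and 7 female-biased genes higher. The count over all genes then went from 4744 to 958. Without 12:12 male 3 the list counts were 3 and 7. With each library left out in turn the male calls over all genes ran from 958 to 6031. In the females of high Cd79a 4 of the 15 female-biased genes fell and 0 rose, against 10.4% lower and 17.6% higher of all genes. Among the 4 was Cyp3a44 with a log2 fold change of -1.80 (SE 0.40, adjusted p = 0.0016). The difference, males minus females, was positive for 7 of the 15 female-biased genes and negative for 1 of the 14 male-biased genes. Over all genes it was positive for 0.201% and negative for 0.0237%. The male-biased gene was C6, at -2.33 (SE 0.45, adjusted p = 0.0136). The list counts of the difference were 4 and 0 without jet lag male 8, where 10 genes differed in all. Without 12:12 male 3 they were 6 and 0, and the count over all genes in that fit is given above. Cyp2d9 was at 152 CPM in jet lag male 8 and 222 CPM in 12:12 male 3, against 1775 to 2193 CPM in the other males, including 12:12 male 5. Cyp2b13, a female-biased cytochrome P450 gene, was at 74.7 and 47.1 CPM in these 2 males, against 0.0626 to 0.936 CPM in the other 8 males and 148 to 553 CPM in females. Hao2 was at 0.635 CPM in jet lag male 8, the highest of the males, and at 0.0207 CPM in 12:12 male 3, against 0 to 0.319 CPM in the other 8 males and 23.6 CPM or more in every female. Igfbp1, a binding protein gene of the pathway list, was at 188 and 84.2 CPM in these 2 males, against 1.54 to 15.5 CPM in the other 8 males. In females it ran from 1.97 to 84.1 CPM, with the highest value in jet lag female 1, a library of low Cd79a.

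**Figure D4:**
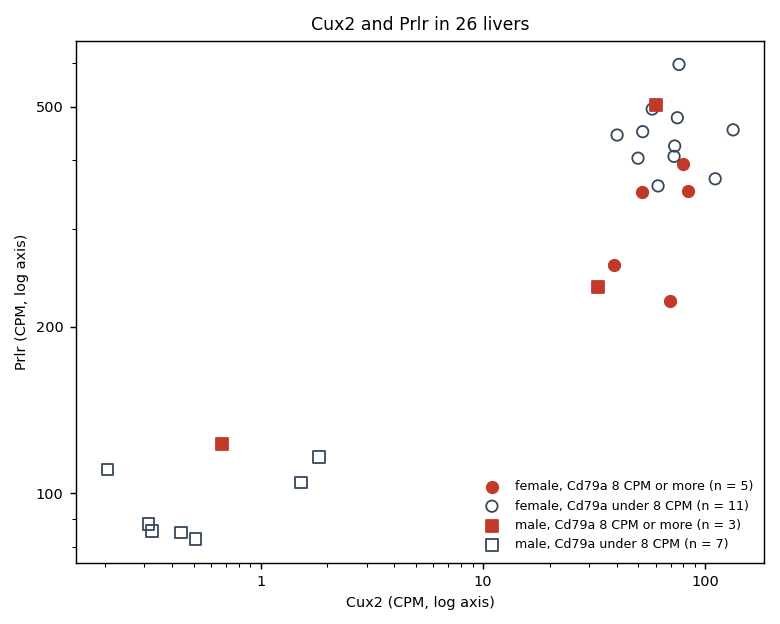
Level of Prlr against Cux2 in each of the 26 libraries, both in CPM on log axes, with circles for females, squares for males and filled marks for Cd79a at 8 CPM or more. Jet lag male 8 (Cux2 60.4, Prlr 502 CPM) and 12:12 male 3 (33.0 and 236 CPM) lie beside the females, and the other 8 males lie at 0.205 to 1.83 CPM of Cux2.

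Across the 26 libraries, after the 4 group means were taken out, Igf1 and Igfals varied together with a Spearman rho of 0.64. Prlr and Cux2 had a rho of 0.63, Socs2 and Cish of 0.57, and Ghr and Igf1 of 0.53. Socs2 and Bcl6 ran opposite, with a rho of -0.47. These values describe libraries that share the 8 of high Cd79a and carry no p. In each lighting a single male lay far above the other males in both Prlr and Cux2. It raised the group means that were taken out of the other males for both genes. How much of the 0.63 rests on these males was not tested. The genes most like Ghr were Nln (rho 0.90), Snrk (0.85) and AI987944 (0.84), those most like Igf1 were Mup17 (0.89), Ugt2b37 (0.88) and Adtrp (0.85), and those most like Socs2 were Smarcad1 (0.74), Phip (0.72) and Zdhhc13 (0.72).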

How the data were processed

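RNA-seq of 26 mouse livers was analysed. The main table deposited by the authors gives, for every library, an expected count for a gene name with no normalization, in which 0.015 stood for 0 (45.82% of cells) and 1.44% of cells were not whole (tolerance 1e-06) and were rounded. Names on several of its 36930 lines were summed to 36883. Per the submitters' processing notes STAR, DESeq2 and mm10 were used; the counting tool and any use of the strand are unnamed in these sources. A table of scaled counts deposited by the authors was not used. From the DESeq2 table deposited by the authors come mean signal, log2 fold change (12:12 over jet lag), SE, Wald score and raw or adjusted p-value for single genes.

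CPM was the count over the column total, scaled to 1e6. A count of 0 allows 3 counts, at most 0.0661 CPM, which covers counting error only. The labels number the mice but say no more of their origin, so p-values measure the spread between these samples. No pair of libraries of a group were copies (chi-square per degree of freedom at least 29). Genes passing filterByExpr by group (count minimum 10) were 16892. edgeR 4.0.16 (R 4.3.3) with TMM and quasi-likelihood tests was fitted over all 26 libraries, with Benjamini-Hochberg adjustment over all genes. Jet lag over both sexes and the Cd79a class used additive models, and other comparisons the 4 group means. The class within each sex and its difference used the same model with a term per sex and, like the scaling by column totals, were added after seeing the data. Alternatives were DESeq2 1.42.0, limma 3.58.1 voom, other scalings, no filter, a replicate block, a Cd79a covariate, other Cd79a limits and leaving out each library. The code was tested on simulated data. Spearman correlations used log2 CPM with a prior count of 2.

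The 10 genes could be named in every comparison. Of the other pathway genes up to 4 higher and 4 lower, and of each sex-biased list 2 genes, with the smallest p past the threshold could be named, and 3 genes most like Ghr, Igf1 and Socs2. Values of a named gene are given elsewhere too, and some genes the rule picks are not reported here. The members, lists and Cd79a limit were chosen with earlier results of these data known.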

Additional observations from a re-analysis of the deposited data

Results flagged for a closer look

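A gap rule marks the highest or lowest library of a group when its gap to the nearest other is large against the whole range of the group. It marked 13 of 40 checks of a gene in a group. A chance rate of about 1 in 20 holds for independent checks of normally distributed values. These checks used CPM that were not logged and shared libraries, so the 13 cannot be set against that rate. Jet lag male 8 was marked for Prlr (502 CPM, others 82.8 to 85.5), Cux2 (60.4 CPM, others 0.325 to 0.51) and Igfals (47 CPM, others 109 to 121). 12:12 male 3 was marked for Prlr (236 CPM, others 88.0 to 123), Cux2 (33 CPM, others 0.205 to 1.83), Socs2 (15.2 CPM, others 3.21 to 7.45) and Ghr (170 CPM, others 375 to 464). Ghr was also marked in 12:12 female 6 (171 CPM, others 270 to 343) and in jet lag male 7 (278 CPM, others 391 to 404). Socs2 was marked in jet lag female 5 (33.8 CPM, others 2.81 to 17.2) and in 12:12 female 7 (18 CPM, others 5.54 to 10.3). Bcl6 was marked in jet lag male 7 (43.7 CPM, others 4.04 to 10.5) and in 12:12 male 1 (59.7 CPM, others 3.89 to 21.8).

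The effect of the Cd79a class differed between males and females by a test of the difference for Prlr (1.97 on the log2 scale) and Cux2 (5.54).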

How the results depend on the processing

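The number of the 10 genes past the threshold changed with these settings. For jet lag over both sexes (0) it was 1 with DESeq2, 1 with the Cd79a covariate and 1 without the libraries of high Cd79a. For females over males under jet lag (0) it was 1 with DESeq2, 2 with limma-voom and 2 without those libraries, and 0 to 2 with each library left out. Under 12:12 lighting (1) it was 2 with limma-voom, 3 with the covariate, 4 without those libraries, and 1 to 3 with each library left out. For the Cd79a class (5) it was 4 with column totals, limma-voom or 4 groups, 3 with no filter or males only, 6 at a Cd79a limit of 16 CPM, 0 with a replicate block, and 3 to 6 with each library left out. For the class in females (4) it was 3 with column totals or no filter, 5 with DESeq2 or at 16 CPM, 1 with the block and 2 to 5 with each library left out. In males (4) it was 3 with DESeq2 size factors, column totals or no filter, 6 with limma-voom, 0 with the block and 2 to 7 with each library left out. For the difference of the class effects (2) it was 3 with DESeq2, 1 with limma-voom, 0 with the block and 1 to 2 with each library left out. Cux2 in the class turned to -0.08 with the block and -0.23 in females only, and in males with the block Igf1 turned to 0.36 and Bcl6 to 0.37. With the block Ghr in the class was at -0.39 (adjusted p = 0.134), Igf1 at -0.27 (0.396) and Igfals at -0.28 (0.308), and the Cux2 difference at 0.19. The cause was not tested.

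The replicate numbers were not taken to pair the mice, since the labels tie no number to a shared batch and only 6 of 10 same-numbered pairs, not every one, had a correlation of deviations over 0.1 (-0.38 to 0.60). The sex comparisons could not be fitted with the block. Over all genes the class calls were 1263 with the block (7205 without), 1239 in females (4730), 1 in males (4744) and 0 for the difference (38, and 97 with DESeq2). Jet lag calls over both sexes (132) were 274 with DESeq2, 225 with the covariate, 381 without the libraries of high Cd79a and 70 to 244 with each library left out, with 70 without jet lag female 3 and 244 without jet lag male 8. Within females (0) they were 55 with DESeq2, 19 with the block and 13 without the libraries of high Cd79a, and within males (2) 94, 4 and 219. Females over males gave 650 calls with DESeq2 and 1902 without those libraries under jet lag (324), and 976 and 1357 under 12:12 lighting (622). With each library left out they were 194 (without jet lag male 6) to 967 (without jet lag male 8), and 346 (without 12:12 male 1) to 848. The lowest level of the 10 genes, 0.205 CPM of Cux2, lay above the 0.0661 CPM that a count of 0 allows.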
